A study of Mus musculus with 3 samples.

Results

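The genes described here are 40 genes of DNA replication and mitosis, chosen by symbol from the gene table of 27998 genes that all 3 libraries share. All 40 were present and each had counts in every library. They were split into 17 S phase members, which make or copy DNA, and 23 mitosis members, which act as the chromosomes condense and separate. They were measured by single-cell RNA sequencing in regulatory T cells (Tregs), a class of CD4 T cells that hold back immune responses and are defined by the transcription factor Foxp3. Values are counts of unique molecular identifiers (UMIs), each standing for 1 captured RNA molecule, in cells with at least 500 UMIs and at most 10% of UMIs on mitochondrial genes.

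The study held 3 samples, 1 each from the epidermis, the dermis and the lymph node of adult mice of the Foxp3 reporter strain FOXP3-EGFP (C.Cg-Foxp3tm2Tch/J), with the epidermis taken from back skin. All 3 were sorted by flow cytometry as GFP+ CD4+ CD3+ CD45+ cells, so every group carries the reporter allele and none was treated. The skin layers were parted with thermolysin, the dermis was further digested with collagenase, and the lymph node was mashed. Both skin samples used the 10x Genomics 3′ v3 kit and the lymph node the v2 kit, so tissue, kit and handling cannot be told apart in any comparison with lymph node. How many mice there were, and their sex, is not given by the labels. Cells with an Xist UMI and no Y-linked UMI numbered 111, 723 and 7086 in epidermis, dermis and lymph node, and cells with the reverse 101, 55 and 0, so the mix of these cells differed between the libraries and cannot be told apart from tissue either. With 1 library per tissue there are no replicates, no test between tissues was made, and every interval covers counting error only.

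A cell that divides first copies its DNA in S phase and then parts the copies in mitosis. Genes for nucleotide supply and the replication fork are switched on by E2F transcription factors as cells enter S phase. Genes for the spindle, the kinetochore and the exit from mitosis follow later, many through the DREAM and MuvB complexes, which bind CHR elements, and through NF-Y, which binds CCAAT boxes. In tissues, many Tregs are known to carry markers of recent activation.

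The promoters of 5 members that hold matches to these elements are shown as examples: Mcm5 and Mcm6 from S phase, and Cdk1, Ccnb2 and Top2a from mitosis. Other members, such as Tyms and Birc5, held no match. Each line gives the 250 bases before the RefSeq start (GRCm38.p6), 5′ to 3′ on the gene's strand, with every E2F, CHR and CCAAT match on either strand in capitals.
Mcm5 (chr8:75109259-75109508, plus strand): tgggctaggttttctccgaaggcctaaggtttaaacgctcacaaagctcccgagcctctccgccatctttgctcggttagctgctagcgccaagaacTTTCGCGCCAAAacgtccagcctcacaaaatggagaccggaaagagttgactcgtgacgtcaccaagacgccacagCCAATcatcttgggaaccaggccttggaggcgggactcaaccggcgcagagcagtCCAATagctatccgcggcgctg
Mcm6 (chr1:128359706-128359955, minus strand): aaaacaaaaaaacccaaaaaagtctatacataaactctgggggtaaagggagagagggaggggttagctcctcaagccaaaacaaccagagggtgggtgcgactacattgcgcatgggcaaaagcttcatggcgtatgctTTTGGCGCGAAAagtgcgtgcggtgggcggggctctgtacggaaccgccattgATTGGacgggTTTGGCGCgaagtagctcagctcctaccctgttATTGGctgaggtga
Cdk1 (chr10:69352913-69353162, minus strand): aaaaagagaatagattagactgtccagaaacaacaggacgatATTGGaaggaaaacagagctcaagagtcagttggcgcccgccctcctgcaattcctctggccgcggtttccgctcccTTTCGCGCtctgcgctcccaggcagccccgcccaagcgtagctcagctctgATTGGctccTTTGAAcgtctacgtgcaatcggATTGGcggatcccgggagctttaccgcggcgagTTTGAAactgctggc
Ccnb2 (chr9:70421555-70421804, minus strand): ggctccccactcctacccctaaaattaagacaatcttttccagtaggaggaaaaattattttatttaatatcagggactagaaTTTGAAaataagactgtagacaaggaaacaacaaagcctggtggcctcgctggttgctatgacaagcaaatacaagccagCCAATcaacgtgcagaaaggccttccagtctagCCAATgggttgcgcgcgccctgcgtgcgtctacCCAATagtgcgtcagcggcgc
Top2a (chr11:99024190-99024439, minus strand): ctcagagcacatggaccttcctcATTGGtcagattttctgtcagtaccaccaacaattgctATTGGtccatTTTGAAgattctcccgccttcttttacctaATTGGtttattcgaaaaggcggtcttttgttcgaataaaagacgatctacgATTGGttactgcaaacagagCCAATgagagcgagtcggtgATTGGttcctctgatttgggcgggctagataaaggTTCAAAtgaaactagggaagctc
The E2F letters searched were TTTCCCGC, TTTCGCGC, TTTGCCGC and TTTGGCGC, the CHR letters were TTTGAA and the NF-Y letters were CCAAT, each on both strands. E2F letters can overlap their own reverse strand, which gives adjoining matches. Mcm5 held 2 E2F matches and Mcm6 held 3, and neither held a CHR match. Cdk1, the kinase that starts mitosis, held 1 E2F match, 2 CHR matches and 3 CCAAT matches. Ccnb2, a cyclin that partners Cdk1, held 1 CHR and 3 CCAAT matches, and Top2a, the topoisomerase that untangles chromosomes, held 2 CHR and 6 CCAAT matches.

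RefSeq windows were matched for 14 of the 17 S phase members and 19 of the 23 mitosis members. E2F letters stood in 4 of 14 S phase windows (28.6%) and in 1 of 19 mitosis windows (5.26%), against 2.16% of the windows of all 27025 genes. CHR letters stood in 1 of 14 S phase windows (7.14%) and in 7 of 19 mitosis windows (36.8%), against 18.3% of all genes. CCAAT stood in 10 S phase windows (71.4%) and 17 mitosis windows (89.5%), against 37.5% of all genes. A match describes letters and not a bound site.

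There were 297 epidermal, 875 dermal and 9400 lymph node cells, with median depths of 6671, 4726 and 3022 UMIs and totals of 2205131, 4630059 and 32906839 UMIs. The skin libraries were not separate: 41 of the barcodes kept as cells stood in both, and none was shared with lymph node. Of these, 33 were deeper in epidermis, and among the 29 with over 5000 UMIs there the dermal copy held 7.09% to 8.60% of the epidermal UMIs (median 7.95%). The other 8 were deeper in dermis, with an epidermal copy of 4.22% to 4.96% (median 4.70%). All 16 epidermal cells with at least 15000 UMIs were among the shared barcodes. The 33 barcodes held 23.9% of all epidermal UMIs and 78.0% of the epidermal UMIs of the 40 members. Why barcodes are shared was not tested. Values are therefore given over all cells, and the main ones again with every shared barcode removed from both skin libraries or kept only where it is deeper. These 2 further views were chosen after the sharing was seen.

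**Figure D1:**
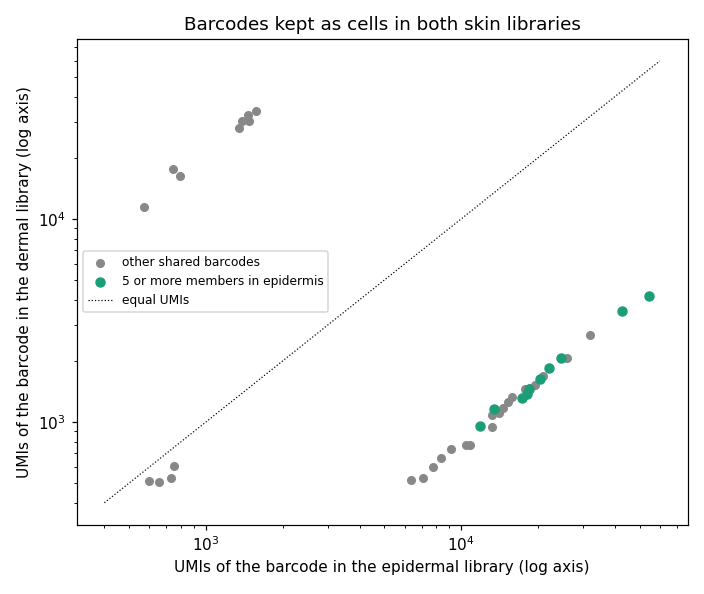
Each point is a barcode kept as a cell in both skin libraries, placed by its UMIs in epidermis (x) and dermis (y), both on log axes. Most of the 41 points lie far from the dotted line of equal UMIs, and all 10 epidermal cells with 5 or more members (green) are deeper in epidermis.

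Summed over all cells, the S phase members stood in epidermis at 919 CPM (UMIs scaled to a common library total, the same for each library; 95% interval 880 to 960). They stood at 357 CPM (340 to 374) in dermis and at 445 CPM (438 to 452) in lymph node. The mitosis members stood at 937 CPM (897 to 979) in epidermis, against 271 (257 to 287) in dermis and 200 (195 to 204) in lymph node. Epidermis was therefore highest for both lists, while the dermal sum was below lymph node for S phase and above it for mitosis. The mitosis sum did not speak for most of its genes. Of the 23 mitosis members, 11 were higher in dermis than in lymph node, with a median log2 ratio of -0.03. With each shared barcode kept only where it is deeper, 8 of 23 were higher, with a median of -0.29. In summed values, fewer cells of a kind and less RNA per cell cannot be told apart.

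The epidermal sum was 2.58-fold that of dermis for S phase members (95% interval 2.41 to 2.75) and 3.45-fold for mitosis members (3.22 to 3.71). With each shared barcode kept once the ratios were 2.70 and 3.83. With shared barcodes removed, the epidermal S phase sum was 352 CPM against 341 in dermis, a ratio of 1.03 (0.937 to 1.14). The epidermal mitosis sum was then 185 CPM against 251, a ratio of 0.735 (0.646 to 0.835). The epidermal excess over dermis was thus held by the shared barcodes. For mitosis members the removal left 308 of 2067 UMIs in epidermis, but 1101 of 1257 in dermis. A fall of the ratio was thus built in, and no direction is read from it, here or for the single genes below. This removal also took out all 16 epidermal cells with at least 15000 UMIs, but 7 of the 20 dermal ones. Sharing and depth therefore cannot be told apart in this view.

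Against lymph node, the epidermal sum was 2.07-fold for S phase members (1.97 to 2.16) and 4.70-fold for mitosis members (4.47 to 4.94). Without shared barcodes these ratios were 0.790 (0.727 to 0.858) and 0.925 (0.822 to 1.04). No lymph node barcode is shared, so this removal took cells from epidermis and left lymph node whole. The 33 shared barcodes deeper in epidermis held 78.0% of its member UMIs, so a fall was built in. No conclusion on epidermis against lymph node is drawn from this view, here or for the single genes below. Dermis against lymph node was 0.801 for S phase members (0.761 to 0.843) and 1.36 for mitosis members (1.28 to 1.45). Kept once, these dermal ratios were 0.767 and 1.23, and without shared barcodes 0.766 and 1.26, so their directions did not turn.

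A member was called when its CPM differed by at least 2-fold and reached at least 10 in the higher library. Of the 40 members, 31 were called higher in epidermis than in dermis and 0 lower, where 5.34% of the 7803 genes reaching 10 CPM were called higher and 4.18% lower. All 40 ratios were above 1, with a median log2 ratio of 2.01. Kept once, 34 were called higher (background 5.64%) and 0 lower (4.27%). Without shared barcodes, 0 were called higher (4.33%) and 3 lower (3.69%), and the median over the 36 members with a ratio was -0.27.

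Against lymph node, 28 members were called higher in epidermis (background 20.7%) and 0 lower (3.85%), with a median log2 ratio of 1.98. All 40 ratios were above 1, but Mcm2 and Mcm4 fell below 1 with TMM or median-of-ratios scaling. Without shared barcodes, 2 were called higher (20.8%) and 8 lower (5.23%), with a median of -0.79 over 37 members. That view leaves lymph node whole, as said above, and no conclusion is drawn from it. Between dermis and lymph node, 3 members were called higher in dermis (background 24.1%) and 3 lower (10.3%), with a median of -0.20. With TMM scaling 6 were lower, and Pcna, Tk1, Uhrf1, Esco2, Tpx2 and Aurkb changed sides. Kept once, 3 were higher (24.2%) and 5 lower (10.6%), with a median of -0.47. Without shared barcodes, 3 were higher (23.8%) and 5 lower (10.9%). The backgrounds are shares of genes reaching 10 CPM, and 19 of the 40 members reached it in dermis or lymph node. Kept once, the number was also 19. On that base the higher calls, 3 of 19 in both views, were below their background. The lower calls, 3 of 19 and 5 of 19 kept once, were above theirs, on few genes. These backgrounds touch many genes of all kinds across the 2 kits. Over the 7312 genes with a mean of at least 10 CPM, the median log2 ratio was 0.07 for epidermis against dermis, 0.20 for epidermis against lymph node and 0.13 for dermis against lymph node.

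**Figure D2:**
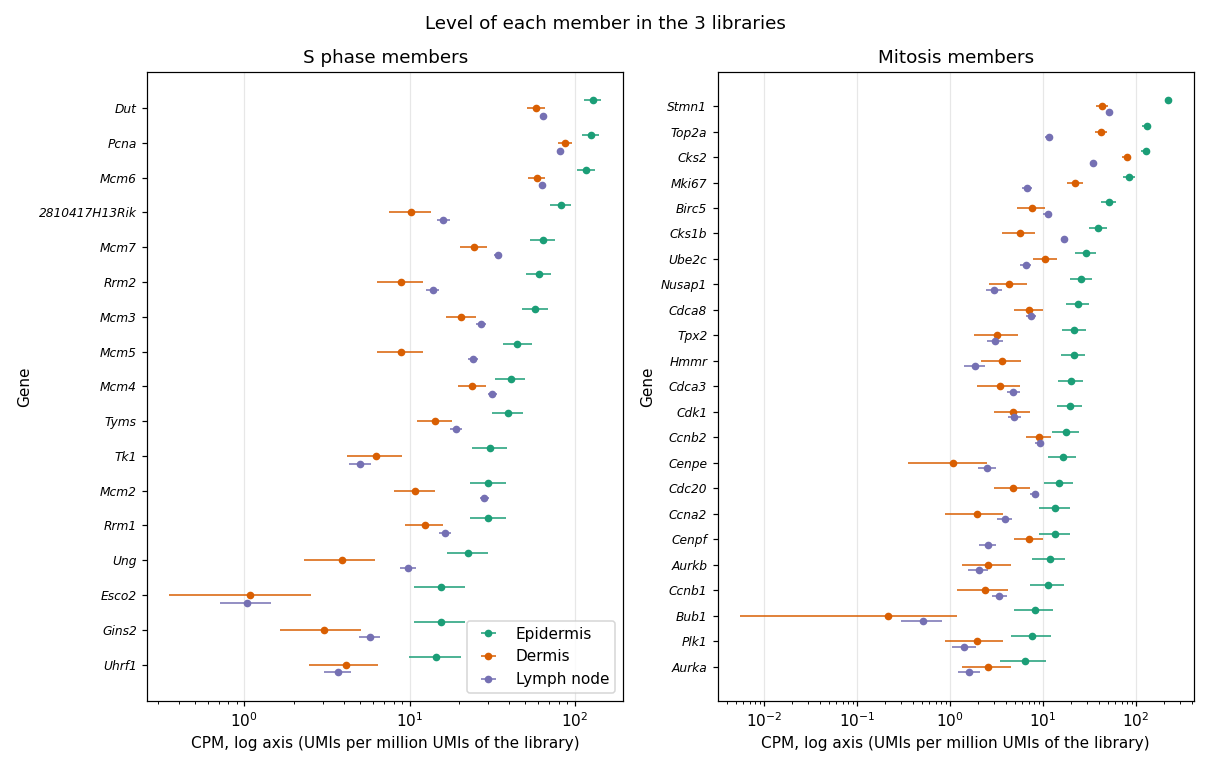
Level of each of the 40 members in epidermis, dermis and lymph node as CPM on a log axis, with exact Poisson 95% intervals, over all cells of each library. Epidermis (green) is the highest of the 3 for every member on this scale, although Mcm2 and Mcm4 fall below lymph node with TMM scaling, and the levels span from Stmn1 at 223 CPM in epidermis down to Bub1 at 0.216 CPM in dermis.

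Among the S phase members, the genes of nucleotide supply were present at unlike levels. Dut, the dUTPase that keeps uracil out of DNA, stood at 129 CPM in epidermis, against 58.3 in dermis and 64.3 in lymph node. Tyms, the thymidylate synthase, stood at 39.5, 14.3 and 19.1 CPM, and its reads may be shared with the pseudogene Tyms-ps. Rrm2, the regulated subunit of ribonucleotide reductase, stood at 60.8, 8.86 and 13.8 CPM. Epidermis was highest for all 3 genes. Without shared barcodes the epidermal levels were 60.5 CPM for Dut, 5.39 for Tyms and 5.39 for Rrm2, so that epidermis no longer stood above lymph node for any of them. Rrm1, the larger reductase subunit, stood at 29.9, 12.3 and 16.3 CPM, and Tk1, the thymidine kinase of the salvage pathway, at 30.8, 6.26 and 5.01 CPM. Without shared barcodes the epidermal level was 12.6 CPM for Rrm1 and 8.39 for Tk1.

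The Mcm genes encode the 6 subunits of the replicative helicase, which opens DNA at the fork. Mcm6 had the highest CPM of them, a scale on which 3′ tags are counted and not set per length, at 117 CPM in epidermis (95% interval 104 to 133), 59.0 in dermis (52.2 to 66.4) and 63.5 in lymph node (60.8 to 66.3). Mcm5, whose promoter is shown above beside that of Mcm6, stood at 44.9 CPM (36.5 to 54.7), 8.86 (6.35 to 12.01) and 24.3 (22.6 to 25.99). With shared barcodes removed, the epidermal levels were 73.7 CPM for Mcm6 and 11.98 for Mcm5, the latter below lymph node. The dermal level of Mcm5 was 2.74-fold below that of lymph node (2.0004 to 3.85), and that of Mcm2 2.63-fold below (1.97 to 3.56), while that of Mcm6 was 1.08-fold below (0.950 to 1.23). The subunits thus did not keep 1 ratio between dermis and lymph node. Kept once, the dermal level was 3.01-fold lower for Mcm5 and 2.65-fold lower for Mcm2. Mcm3, Mcm4 and Mcm7 were each 1.32-fold to 1.41-fold lower in dermis than in lymph node, below the 2-fold limit.

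Pcna, the sliding clamp of the replication fork, was among the most widely found members, at 125 CPM in epidermis, against 86.8 in dermis and 80.9 in lymph node, with reads that may be shared with the pseudogenes Pcna-ps1 and Pcna-ps2. Its epidermal excess over dermis was 1.44-fold (1.23 to 1.68), and without shared barcodes its epidermal level was 73.1 CPM. 2810417H13Rik, also called Pclaf, encodes a factor that binds Pcna and stood at 82.1, 10.2 and 16.0 CPM. Without shared barcodes its epidermal level was 3.60 CPM. Esco2, the acetyltransferase that locks cohesin around the new sister chromatids, stood at 15.4, 1.08 and 1.03 CPM, the lowest S phase level in both dermis and lymph node. Gins2, a subunit of the helicase complex, stood at 15.4, 3.02 and 5.74 CPM. Ung, which cuts uracil out of DNA, stood at 22.7, 3.89 and 9.79 CPM, and Uhrf1, which recruits DNA methylation to new strands, at 14.5, 4.10 and 3.68 CPM. Without shared barcodes the epidermal levels of these last 4 genes were 0.599, 2.40, 7.79 and 1.80 CPM in the order named.

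Among the mitosis members, Stmn1, a protein that destabilises microtubules, had the highest CPM in epidermis, at 223 CPM (203 to 243) against 43.4 in dermis and 51.6 in lymph node. Without shared barcodes its epidermal level was 25.2 CPM. Mki67, the coat of mitotic chromosomes and a usual marker of dividing cells, stood at 84.3 CPM (72.7 to 97.4) in epidermis, against 22.2 (18.2 to 27.0) in dermis and 6.75 (5.89 to 7.69) in lymph node. Top2a stood at 130 CPM (116 to 146), 42.3 (36.6 to 48.7) and 11.6 (10.4 to 12.8). Both were higher in dermis than in lymph node, by 3.30-fold for Mki67 (2.58 to 4.18) and 3.66-fold for Top2a (3.06 to 4.35). Kept once, these ratios were 3.07 and 3.48. Without shared barcodes the epidermal levels were 19.2 CPM for Mki67 and 16.8 for Top2a, which are still above those of lymph node.

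Cks2, a small protein that docks cyclin-dependent kinases, was the third member called higher in dermis, at 79.5 CPM against 34.6 in lymph node, 2.29-fold (2.03 to 2.58). It stood at 127 CPM in epidermis and 89.9 there without shared barcodes. Its relative Cks1b went the other way between dermis and lymph node, at 5.62 CPM against 16.9, 3.003-fold lower (2.03 to 4.64), and stood at 39.5 CPM in epidermis. The pair of Cks genes thus moved in opposite directions between dermis and lymph node. The epidermal level of Cks1b without shared barcodes was 5.39 CPM, below lymph node.

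The kinase Cdk1 stood at 19.5 CPM in epidermis, against 4.75 in dermis and 4.92 in lymph node, and its mitotic cyclins Ccnb1 and Ccnb2 at 11.3, 2.38 and 3.40 CPM and at 17.7, 9.07 and 9.24 CPM. Reads of both cyclins may be shared with the pseudogenes Ccnb1-ps and Ccnb2-ps. Ccna2, the cyclin of S phase and early mitosis, stood at 13.6, 1.94 and 3.86 CPM. Dermis and lymph node differed by 1.02-fold for Ccnb2 and 1.04-fold for Cdk1. Without shared barcodes, epidermis held 2 Cdk1 UMIs, 3 of Ccnb1, and 0 of Ccnb2 and Ccna2.

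Birc5, the survivin subunit of the chromosomal passenger complex, stood at 51.2 CPM in epidermis, against 7.56 in dermis and 11.2 in lymph node, and its partners Aurkb and Cdca8 at 11.8, 2.59 and 2.04 CPM and at 23.6, 7.13 and 7.48 CPM. The kinases Plk1 and Aurka stayed below 10 CPM in all 3 libraries, as did Bub1, a kinase of the spindle checkpoint. Bub1 had 18 UMIs in epidermis, with 1 in dermis and 17 in lymph node. Its epidermal ratio to dermis of 37.8 has a counting interval from 5.97 to 1.57e+03 and was not called. Without shared barcodes, epidermis held 2 Birc5 UMIs, 4 each of Aurkb and Cdca8, and 0 of Bub1. Its Cdca8 level was then 2.40 CPM against 6.16 in dermis. The removal took Cdca8 from 52 to 4 UMIs in epidermis, but from 33 to 27 in dermis. All 10 epidermal cells with 5 or more members were taken out, and they held 48 of the 52. A fall in epidermis was thus built in, and no direction is read from these levels.

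Of the spindle and kinetochore genes, Hmmr and Tpx2, which organise spindle microtubules, stood at 21.3 and 21.8 CPM in epidermis, 3.67 and 3.24 in dermis, and 1.85 and 3.07 in lymph node. Nusap1, which bundles spindle microtubules, stood at 25.8, 4.32 and 3.01 CPM. Cenpe, a kinetochore motor, stood at 16.3, 1.08 and 2.49 CPM, and Cenpf, a kinetochore protein, at 13.6, 7.13 and 2.55 CPM. The last genes act with the complex that ends mitosis: Cdc20, its activator, stood at 14.97, 4.75 and 8.11 CPM, and Ube2c, its ubiquitin carrier, at 29.0, 10.6 and 6.50 CPM. Cdca3 stood at 19.95, 3.46 and 4.801 CPM. Without shared barcodes, Hmmr, Cdca3, Cenpe and Nusap1 had 1 UMI each in epidermis, Tpx2 had 3, Cdc20 had 5, Ube2c had 7 and Cenpf had 8.

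These sums came from very unequal numbers of cells. In epidermis, 50% of the S phase UMIs lay in 7 of 297 cells and 50% of the mitosis UMIs in 4. In dermis the same shares took 128 and 32 of 875 cells, and in lymph node 1007 and 59 of 9400. With shared barcodes removed, the epidermal numbers were 51 and 34 of 256 cells and the dermal ones 132 and 31 of 834. In each library the mitosis UMIs were therefore held by fewer cells than the S phase UMIs. A single epidermal cell held 21.1% of that library's mitosis UMIs, a single dermal cell 14.7% and a single lymph node cell 3.08%. The largest epidermal share was 5.84% with shared barcodes removed. UMIs of any S phase member were found in 77.8% of cells in epidermis, in 71.9% of those of dermis and in 64.5% of those of lymph node, and UMIs of any mitosis member in 54.2%, 43.8% and 23.2%, at the unequal depths given above. Without thinning, these shares move with depth.

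**Figure D3:**
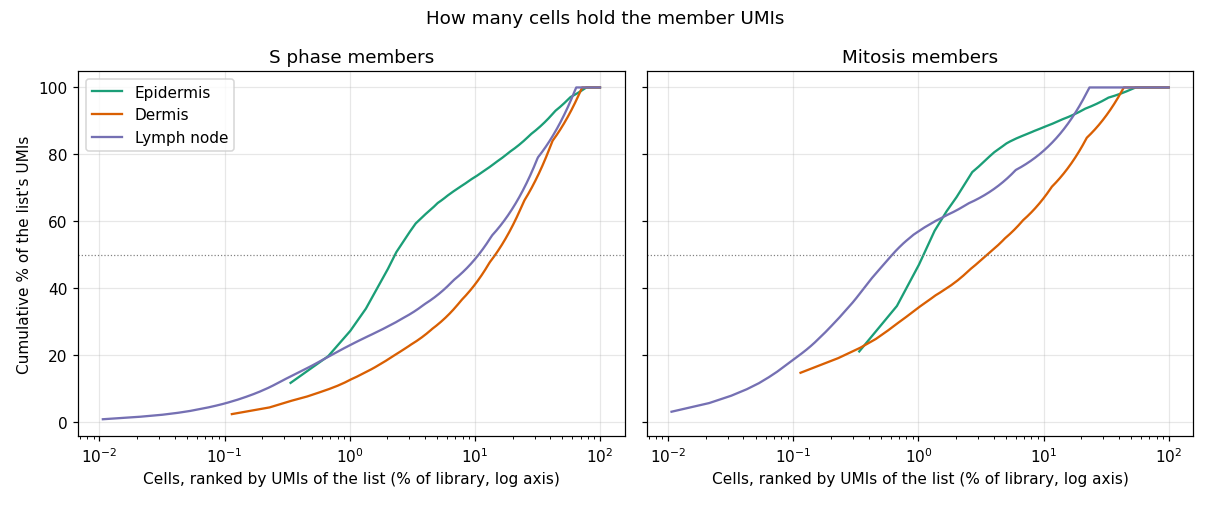
Cumulative percent of the UMIs of each list (y) against cells ranked from the most to the fewest UMIs of that list (x, percent of the library's cells on a log axis), with a dotted line at 50%. The lymph node curve for mitosis members passes 50% at 0.628% of cells, and the dermal curve at 3.66%.

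To count cells at equal depth, each cell was thinned at random to 1500 UMIs, and shallower cells were left out (35 epidermal, 47 dermal and 92 lymph node cells). Cells with UMIs of at least 5 different members then numbered 10 of 262 in epidermis (3.82%, exact Clopper-Pearson 95% interval 1.85 to 6.91), 7 of 828 in dermis (0.845%, 0.341 to 1.73) and 82 of 9308 in lymph node (0.881%, 0.701 to 1.09). Not thinned, the shares were 17.5%, 7.43% and 4.15% of all cells. All 10 epidermal cells had shared barcodes, and 4 of the 7 dermal cells were the shallower copies of epidermal cells. Without shared barcodes the counts were 0 of 232 in epidermis, which allows up to 1.58%, and 3 of 811 in dermis (0.370%). With a second random draw the counts were 15, 8 and 75.

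The cut at 5 members is a range and not a cell type. At 3 or more members the thinned counts were 25, 37 and 346 cells, and at 8 or more they were 7, 4 and 47. Kept once, the dermal counts were 30 and 1, and all 7 epidermal cells with 8 or more members had shared barcodes. In epidermis, 2 cells held exactly 5 members and 4 cells exactly 4. The cells with 5 or more members took 55.2% of S phase and 77.6% of mitosis UMIs in epidermis, 5.15% and 23.2% in dermis, and 18.8% and 51.1% in lymph node. Kept once, the dermal shares were 2.81% and 21.3%.

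Cells with members of both lists were fewer than cells with mainly S phase members in each library. In epidermis and lymph node they were not fewer than cells with mainly mitosis members. After thinning, 6 epidermal, 3 dermal and 34 lymph node cells held 3 or more members of each list. All 6 epidermal cells had shared barcodes, and with each shared barcode kept once the dermal number was 0 of 819. In lymph node, 169 cells held 3 or more S phase members with under 3 mitosis members (1.82%), and 31 held the reverse (0.333%). In epidermis these numbers were 10 and 1 cells, and in dermis 11 and 7, or 10 and 6 kept once. The epidermal cell richest in members had 162 S phase and 436 mitosis UMIs out of 42547, with UMIs of all 23 mitosis members. Another epidermal cell had 22 S phase and 281 mitosis UMIs out of 11833, and 1 had 237 S phase and 82 mitosis UMIs out of 54520. The richest dermal cell, whose barcode was not shared, had 33 S phase and 185 mitosis UMIs out of 15851.

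**Figure D4:**
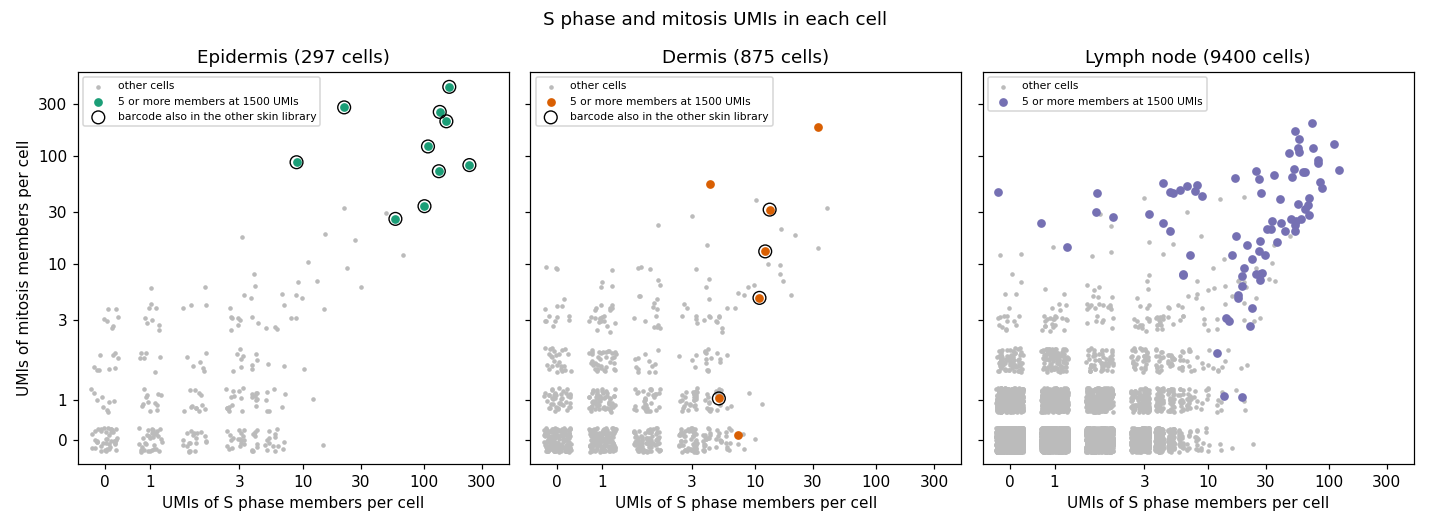
Each point is a cell, with its UMIs of S phase members (x) and mitosis members (y), not thinned, spread slightly at random so that equal values can be seen, on axes that are linear to 3 and logarithmic above. Coloured points are the 10 epidermal, 7 dermal and 82 lymph node cells with 5 or more members at 1500 UMIs, and black rings mark barcodes also in the other skin library.

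The members differed in how far their UMIs were gathered in such cells. For each member, cells were set apart by 5 or more of the other 39 members, so that its own UMIs did not choose them. In lymph node, which shares no kept barcode with skin, the share of a mitosis member's UMIs in those cells ran from 20.8% for Cks2 to 94.1% for Bub1, with a median of 64.0%. The share of an S phase member's UMIs ran from 8.62% for Mcm4 to 91.2% for Esco2, with a median of 20.9%. Esco2, 2810417H13Rik (82.2%) and Rrm2 (60.0%) were the S phase members most held in those cells, while Mcm6 (9.56%), Pcna (10.3%) and Dut (11.01%) were spread widely. Among mitosis members, Hmmr (86.9%), Nusap1 (79.8%) and Tpx2 (79.2%) came next after Bub1, and the lowest shares after Cks2 were those of Cks1b (35.5%) and Cdc20 (40.4%). The 39 other members share cells and depth with each member, so these shares are a description.

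**Figure D5:**
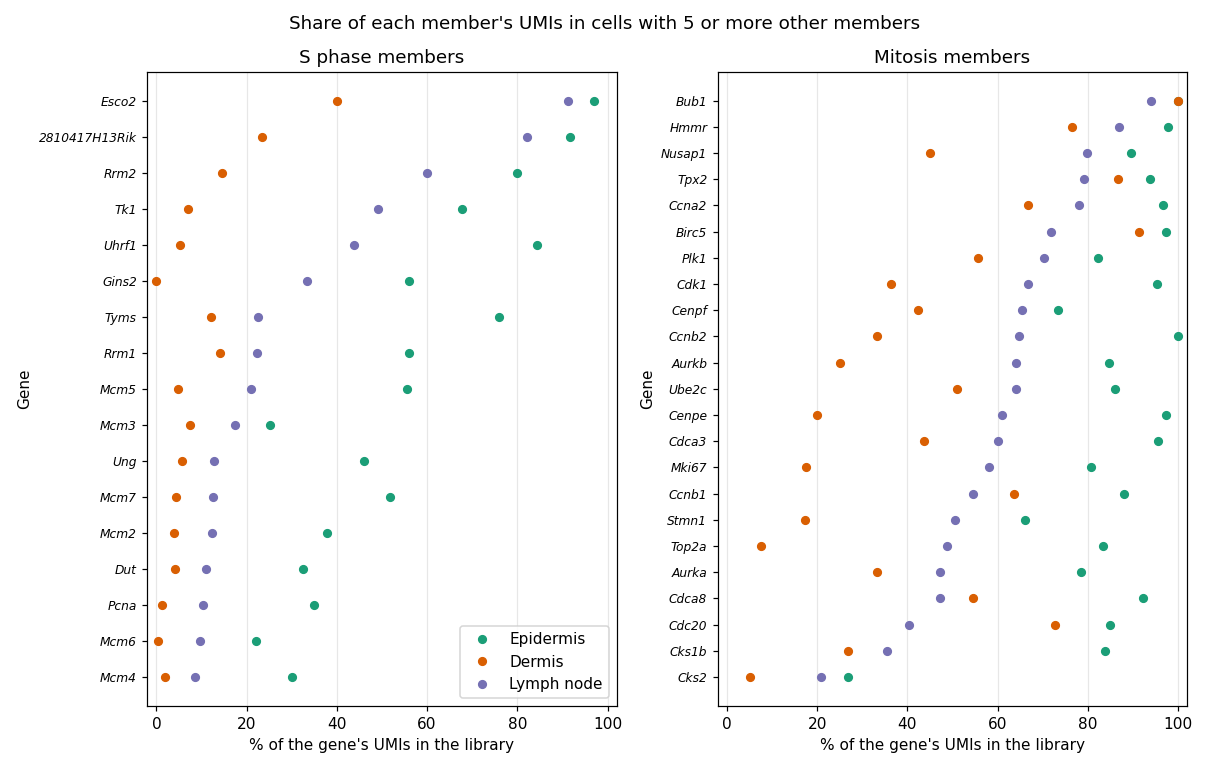
For each member, the percent of its UMIs that lay in cells with 5 or more other members at 1500 UMIs, in each library, over all cells. In lymph node the S phase shares have a median of 20.9% and the mitosis shares a median of 64.0%.

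Outside those cells all 40 members were lower in epidermis and lymph node and 38 in dermis, where Mcm6 and Gins2 were not. Mki67 then stood at 18.4 CPM in epidermis, against 18.5 in dermis and 2.89 in lymph node, and Top2a at 24.5, 39.4 and 6.06 CPM. Birc5 stood at 1.53, 0.653 and 3.23 CPM. Both skin libraries were above lymph node for Mki67 and Top2a, as they were over all cells. The cells taken out held 80.6%, 17.5% and 58.1% of Mki67 UMIs in epidermis, dermis and lymph node. For Top2a they held 83.3%, 7.65% and 48.8%. The removal itself thus raises the ratios of dermis to lymph node, and their size is not read. The skin values of Birc5 rest on 3 UMIs in each library, against 104 in lymph node, so no direction is read from them. Cks2 stood at 103, 76.0 and 28.1 CPM outside those cells, and Pcna at 88.8, 86.4 and 74.2 CPM. Without any cell with 5 or more members, the mitosis sum of dermis was 2.10-fold that of lymph node (1.96 to 2.26) and the S phase sum 0.922-fold (0.874 to 0.972). Here the summed members also chose the removed cells, which held 51.1% of lymph node mitosis UMIs and 23.2% of dermal ones. The removal itself thus raises the mitosis ratio, and no conclusion is drawn from it. The calls that follow share this limit. Without those cells, 3 members were called higher in dermis than in lymph node (background 24.5%) and 3 lower (10.4%). Epidermis then had 3 members higher than dermis (3.94%) and 0 lower (3.91%), and 5 higher than lymph node (20.8%) and 0 lower (4.55%).

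In the cells with 5 or more members, T cell genes (Cd3d, Cd3e, Cd3g, Cd4 and Foxp3) had UMIs in all 10, 7 and 82 of them, not thinned. The summed T cell genes were lower there than in the other cells. They stood at 1837 against 2582 CPM in epidermis, 2187 against 2404 in dermis and 2488 against 3052 in lymph node. Foxp3 itself had a UMI in 8, 1 and 11 of the cells with 5 or more members, and in 38.3%, 47.2% and 7.12% of the other cells. Kept once, it had a UMI in 1 of 3 such dermal cells. Markers of 10 other cell types were summed. Keratinocyte, fibroblast, endothelial, macrophage, mast cell, melanocyte and erythroid markers had between 0 and 4 UMIs in the epidermal cells and 0 in the dermal cells. In the lymph node cells, keratinocyte markers had 31 UMIs and endothelial markers 37, of which Pecam1 took 35. Markers of CD8 T and NK cells had 72 UMIs in the epidermal cells (296 CPM, against 187 in the other cells) and 133 in the lymph node cells (177 CPM against 72.3), led by Cd8b1 and Nkg7. Markers of dendritic cells had 90, 2 and 202 UMIs (370 CPM in the epidermal cells against 460 in the rest), led in epidermis and lymph node by Cd74, and markers of B cells had 9, 2 and 30 UMIs, all of Cd79b. Their part in the member counts was not tested.

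These cells were deep in epidermis and lymph node. Their median depth was 19394 UMIs in epidermis against 6527 in the other cells, and 8689 in lymph node against 3012. In dermis it was 2710 against 4740.5, and kept once 8537 against 4811. Scrublet, a doublet caller, marked none of them, but it marked 0 of 9400 cells in lymph node and did not work there. The part of depth and doublets in the member counts was not tested.

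Other genes of the same pathways were read from a list of 52 further S phase genes and 61 further mitosis genes. Of the 52, 17 were called higher in epidermis than in dermis and 0 lower (background 5.34% and 4.18%), among them Cdc45, a subunit of the replicative helicase complex, at 12.7 against 1.51 CPM. Of the 61, 21 were called higher and 1 lower, led by Sgol1, which guards centromeric cohesin, at 12.7 against 0.648 CPM. Without shared barcodes Cdc45 stood at 3.60 CPM in epidermis, and Sgol1 had 0 UMIs there. The 1 lower gene was Kif23, a motor of cell cleavage, at 11.3 CPM in epidermis, against 30.5 in dermis and 2.40 in lymph node. Between dermis and lymph node, 6 of the 52 were higher and 7 lower, and 5 of the 61 were higher and 2 lower. In that comparison 32 of the 52 and 15 of the 61 reached 10 CPM. Of all genes reaching 10 CPM, 24.1% were called higher and 10.3% lower. Kept once, the numbers were 6 and 8 of the 52, and 6 and 3 of the 61 (background 24.2% and 10.6%). In that view 32 of the 52 and 16 of the 61 reached 10 CPM. Smc4, a condensin subunit, was lower in dermis, at 190 against 546 CPM.

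Of 55 further genes that control the cycle, 39 reached 10 CPM in epidermis or dermis. Of these, 2 were called higher in epidermis than in dermis and 5 lower, against the same backgrounds of 5.34% and 4.18%. Cdkn1a, the p21 inhibitor of cyclin-dependent kinases, stood at 22.7 CPM in epidermis, against 89.4 in dermis and 1.98 in lymph node, and at 20.97 and 85.97 CPM in the skin libraries without shared barcodes. Gadd45b, a stress gene, stood at 489, 775 and 25.0 CPM. Trp53 was lower in both skin libraries, at 79.4 and 73.4 CPM against 186 in lymph node. With shared barcodes kept once, the higher and lower calls for epidermis against dermis were 17 and 0 of the 52, 23 and 1 of the 61, and 3 and 5 of the 55. The backgrounds for that view were 5.64% higher and 4.27% lower. Without shared barcodes the calls were 3 and 0, 1 and 1, and 0 and 6. In that view 4.33% of the genes reaching 10 CPM were called higher and 3.69% lower.

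In lymph node, the 40 members were also read against cells set apart by the further lists alone. The cut first planned, 3 or more listed genes at 1500 UMIs, took in 50.3% of lymph node cells, so a cut of 8 was set after values were seen, which took in 110 of 9308 cells. In those 110 cells the S phase members stood at 3400 CPM against 372 in the rest, 9.14-fold higher (8.76 to 9.53). The mitosis members stood at 3754 CPM against 111, 33.7-fold higher (32.1 to 35.4). The further lists hold genes of the same pathways as the members. These folds, and those of single members below, are therefore a description and not a test. Median depth was 6209 UMIs in the 110 cells and 3026.5 in the rest.

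Among single members, Rrm2 was 66.8-fold higher in the 110 cells (55.0 to 81.2), Tk1 34.2-fold (24.9 to 47.0) and Mcm5 11.2-fold (9.37 to 13.2), while Mcm4 was 3.90-fold (3.11 to 4.83) and Mcm6 4.51-fold higher (3.90 to 5.21). Of the 55 control genes, 35 reached 20 CPM. Of these, 14 were higher by at least 2-fold and 1 lower by as much, while at any size 24 were higher and 11 lower. Among the control genes, the cyclin E genes Ccne1 and Ccne2 stood at 43.9 against 3.25 CPM and 35.1 against 0.469 CPM, and E2f1 at 37.6 against 1.22 CPM. Btg1, which restrains proliferation, stood at 641 against 1402 CPM. Of the 24 Treg effector genes, 20 reached 20 CPM, of which 5 were higher by at least 2-fold and 0 lower by as much, while at any size 16 were higher and 4 lower. Gzmb, the granzyme B protease, stood at 212 against 35.4 CPM, Klrg1 at 67.7 against 19.3 CPM and Prdm1 at 31.4 against 9.01 CPM. Among the 4, Il2ra, a chain of the interleukin 2 receptor, stood at 134 against 216 CPM, 1.61-fold lower (1.33 to 1.96), and the costimulatory receptor gene Tnfrsf4 at 582 against 673 CPM, 1.16-fold lower (1.06 to 1.27). All 12 resting T cell genes reached 20 CPM, and 3 were lower by at least 2-fold. No share over all genes is given for the 110 cells against the rest. The control, effector and resting counts can therefore not be read as above a background. Satb1 stood at 37.6 against 128 CPM, Bcl2, which protects from cell death, at 162 against 479 CPM. Bach2 had 3 UMIs in the 110 cells and was 7.60-fold lower there (2.59 to 36.9). Ccr7, which guides cells to lymph nodes, stood at 133 against 226 CPM.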

How the data were processed

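Droplet single-cell RNA libraries of sorted mouse Tregs were analysed, 1 each from epidermis, dermis and lymph node. The authors deposited unnormalized counts, 1 UMI count for each gene in each barcode called as a cell. The submitters' processing notes name Cell Ranger and mm10. Per the file headers, version 4.0.0 was used for epidermis and dermis. The version for lymph node and the annotation release are not stated in the labels or headers.

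Barcodes were kept with at least 500 UMIs and at most 10% mitochondrial UMIs, which left out 63, 202 and 19 in the order above. UMIs of each gene were summed over a library's cells and given as CPM with exact Poisson 95% intervals. Ratios had exact binomial intervals and shares exact Clopper-Pearson intervals. PCR copies are collapsed by the UMI, and intervals cover counting error only. A ratio against 0 UMIs used a floor of 3 UMIs. No test between tissues was run, since cells are not replicates. Thinning drew 1500 UMIs from each cell without replacement, seeded by barcode. The seeding was changed after a first draw had been seen, so that a cell is thinned alike with and without shared barcodes, and the counts move with the draw. Scrublet (run through scanpy) marked 28, 14 and 0 cells as doublets, and these were left in.

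All 40 members could be named. From the wider S phase, wider mitosis and control lists, up to 4 genes per comparison and direction with the largest called ratios could be named. From the lists read within lymph node, genes were named by their ratio between the 110 cells and the rest, where the planned cut of 3 wider-list genes was replaced by 8. Il2ra, Tnfrsf4, Ccr7, Btg1, E2f1 and the cyclin E genes in that comparison were chosen after their values were seen. Some genes of these lists are not reported here. The members and lists were chosen with earlier results of these data known. Alternatives were TMM and median-of-ratios scaling, other totals, cell filters, cuts and depths. Scripts were tested on simulated data. Sequences came from RefSeq (GRCm38.p6), with 2810417H13Rik matched as Pclaf, and positions refer to that build. Tools were Python 3.11.15, numpy 2.4.6, pandas 2.3.3, scipy 1.17.1, scanpy 1.11.5, matplotlib 3.10.9, R 4.3.3 and edgeR 4.0.16.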

Additional observations from a re-analysis of the deposited data

Results flagged for a closer look

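The barcodes left out by the mitochondrial limit also held UMIs of the members, and stand here because the count was above the limit that a count of 0 allows, which a few UMIs are enough to pass. They held 99 member UMIs in 63 epidermal barcodes (881 CPM, 95% interval 716 to 1073, against a limit of 26.7 CPM), 125 in 202 dermal barcodes (419 CPM, 349 to 499, against 10.1 CPM) and 70 in 19 lymph node barcodes (2020 CPM, 1574 to 2552, against 86.6 CPM). Member UMIs were found in 32, 73 and 15 of these barcodes, and a single barcode held up to 21, 5 and 18 of them. In the kept cells the members stood at 1857, 628 and 645 CPM in the same order.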

How the results depend on the processing

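With 1 library per tissue, no replicate could be left out. No paired analysis was possible because the labels give no replicate numbers and each tissue has 1 library. The epidermal excess depended on the barcodes also found in the dermal library and on the cells with 5 or more members. Those barcodes included all 16 epidermal cells with at least 15000 UMIs, and the cells with 5 or more members were chosen by the members themselves. The cause of the sharing was not tested. Of the summed ratios, counts and shares recomputed, 118 stayed near their value, 109 moved beyond counting error or 1.5 times, and 4 changed sign. The views with shared barcodes, with cells of 5 or more members or 8 or more wider-list genes, without the top cell and with a second draw were chosen after seeing the data. Thinning was also re-seeded for each barcode after first values were seen. Depth limits the members under 10 CPM, such as Bub1 and Aurka. The cause of the shifts was not tested.

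For S phase members, epidermis against dermis (log2 1.37 over all cells), the log2 ratio was 1.26 with TMM factors, 1.26 with median-of-ratios size factors, 1.48 with a total without mitochondrial and ribosomal protein genes, 0.58 with the mean of each cell's CPM, 0.63 in cells thinned to 1500 UMIs, 0.31 without cells above the 95th percentile of UMIs, 0.067 without cells with 3 or more wider-list genes, 0.046 without shared barcodes, 0.44 without cells with 5 or more members, 0.50 without cells with 8 or more wider-list genes. For S phase members, epidermis against lymph node (log2 1.05 over all cells), the log2 ratio was 0.57 with TMM factors, 0.68 with median-of-ratios size factors, 0.84 with a total without mitochondrial and ribosomal protein genes, 0.53 with the mean of each cell's CPM, 0.52 in cells thinned to 1500 UMIs, 1.13 without cells marked by Scrublet, 0.22 without cells above the 95th percentile of UMIs, -0.036 without cells with 3 or more wider-list genes, -0.34 without shared barcodes, 0.33 without cells with 5 or more members, 0.33 without cells with 8 or more wider-list genes, 0.96 without the cell with the most member UMIs. For S phase members, dermis against lymph node (log2 -0.32 over all cells), the log2 ratio was -0.69 with TMM factors, -0.58 with median-of-ratios size factors, -0.64 with a total without mitochondrial and ribosomal protein genes, -0.047 with the mean of each cell's CPM, -0.11 in cells thinned to 1500 UMIs, -0.095 without cells above the 95th percentile of UMIs, -0.10 without cells with 3 or more wider-list genes, -0.12 without cells with 5 or more members, -0.18 without cells with 8 or more wider-list genes. For mitosis members, epidermis against dermis (log2 1.79 over all cells), the log2 ratio was 1.68 with TMM factors, 1.68 with median-of-ratios size factors, 1.90 with a total without mitochondrial and ribosomal protein genes, 1.08 with the mean of each cell's CPM, 1.16 in cells thinned to 1500 UMIs, 1.90 without cells marked by Scrublet, 0.85 without cells above the 95th percentile of UMIs, 0.41 without cells with 3 or more wider-list genes, 1.58 in cells with an Xist UMI and no Y-linked UMI, 1.94 with shared barcodes kept once, -0.44 without shared barcodes, 0.17 without cells with 5 or more members, 0.22 without cells with 8 or more wider-list genes. For mitosis members, epidermis against lymph node (log2 2.23 over all cells), the log2 ratio was 1.75 with TMM factors, 1.87 with median-of-ratios size factors, 2.03 with a total without mitochondrial and ribosomal protein genes, 2.31 with the mean of each cell's CPM, 2.02 in cells thinned to 1500 UMIs, 2.35 without cells marked by Scrublet, 1.98 without cells above the 95th percentile of UMIs, 1.59 without cells with 3 or more wider-list genes, 1.80 in cells with an Xist UMI and no Y-linked UMI, -0.11 without shared barcodes, 1.24 without cells with 5 or more members, 1.06 without cells with 8 or more wider-list genes, 1.96 without the cell with the most member UMIs. For mitosis members, dermis against lymph node (log2 0.44 over all cells), the log2 ratio was 0.070 with TMM factors, 0.18 with median-of-ratios size factors, 0.12 with a total without mitochondrial and ribosomal protein genes, 1.24 with the mean of each cell's CPM, 0.86 in cells thinned to 1500 UMIs, 1.13 without cells above the 95th percentile of UMIs, 1.19 without cells with 3 or more wider-list genes, 0.23 in cells with an Xist UMI and no Y-linked UMI, 0.30 with shared barcodes kept once, 0.33 without shared barcodes, 1.07 without cells with 5 or more members, 0.84 without cells with 8 or more wider-list genes, 0.26 without the cell with the most member UMIs. Members called higher, epidermis against dermis, were 31 over all cells and 9 with a filter at 50 CPM, 9 with the mean of each cell's CPM, 16 in cells thinned to 1500 UMIs, 5 without cells above the 95th percentile of UMIs, 4 without cells with 3 or more wider-list genes, 0 without shared barcodes, 3 without cells with 5 or more members, 2 without cells with 8 or more wider-list genes. Members called lower, epidermis against dermis, were 0 over all cells and 1 without cells with 3 or more wider-list genes, 3 without shared barcodes. Members called higher, epidermis against lymph node, were 28 over all cells and 9 with a filter at 50 CPM, 11 with the mean of each cell's CPM, 13 in cells thinned to 1500 UMIs, 7 without cells above the 95th percentile of UMIs, 5 without cells with 3 or more wider-list genes, 2 without shared barcodes, 5 without cells with 5 or more members, 4 without cells with 8 or more wider-list genes. Members called lower, epidermis against lymph node, were 0 over all cells and 1 without cells with 3 or more wider-list genes, 1 in cells with an Xist UMI and no Y-linked UMI, 8 without shared barcodes. Members called higher, dermis against lymph node, were 3 over all cells and 1 with a filter at 50 CPM. Members called lower, dermis against lymph node, were 3 over all cells and 6 with no filter on low values, 0 with a filter at 50 CPM, 1 at 3-fold, 6 with TMM factors, 5 with a total without mitochondrial and ribosomal protein genes, 1 without cells with 3 or more wider-list genes, 5 in cells with an Xist UMI and no Y-linked UMI, 5 with shared barcodes kept once, 5 without shared barcodes. The epidermis share of cells with 5 or more members was 3.82% and 9.54% at 3 members, 17.5% with no thinning, 0% without shared barcodes. The dermis share of cells with 5 or more members was 0.845% and 4.47% at 3 members, 1.93% thinned to 3000 UMIs, 7.43% with no thinning. The lymph node share of cells with 5 or more members was 0.881% and 3.72% at 3 members, 0.505% at 8 members, 0.628% thinned to 1000 UMIs, 3.22% thinned to 3000 UMIs, 4.15% with no thinning, 1.15% in cells with an Xist UMI and no Y-linked UMI.

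Of 1725 single-member ratios recomputed, 105 of called members changed sign, all in epidermis. A further 46 were not computed because both libraries had at most 3 UMIs, and 29 because 1 library had 0. With cells thinned to 1500 UMIs, these log2 ratios were against dermis Tyms -0.25 and against lymph node Tyms -0.64, Cks1b -0.15. Without cells above the 95th percentile of UMIs, these log2 ratios were against dermis Rrm2 -0.044, Tyms -0.58, Uhrf1 -1.41, 2810417H13Rik -0.45, Aurkb -0.044 and against lymph node Tyms -0.77, Uhrf1 -0.39. Without cells with 3 or more wider-list genes, these log2 ratios were against dermis Rrm2 -0.38, Mcm7 -0.25, Tyms -0.95, Dut -0.18, 2810417H13Rik -0.16, Top2a -1.32, Cdca8 -0.57, Aurkb -0.90 and against lymph node Mcm3 -0.26, Tyms -1.19, Dut -0.19, Cdca3 -0.071, Cdca8 -0.66, Cks1b -0.00075. In cells with an Xist UMI and no Y-linked UMI, these log2 ratios were against dermis Ube2c -0.39 and against lymph node Ccnb1 -0.76, Cks1b -0.26. Without shared barcodes, these log2 ratios were against dermis Rrm2 -0.14, Tyms -1.16, Uhrf1 -1.27, 2810417H13Rik -1.11, Mki67 -0.16, Top2a -1.31, Birc5 -2.41, Stmn1 -0.57, Cdc20 -0.28, Cdk1 -1.93, Ccnb1 -0.34, Cdca3 -2.51, Cdca8 -1.36, Cenpe -0.61, Hmmr -2.51, Tpx2 -0.34, Ube2c -1.35, Nusap1 -2.61 and against lymph node Rrm2 -1.35, Mcm3 -0.41, Tyms -1.82, Dut -0.088, Gins2 -1.26, Ung -0.33, Uhrf1 -1.03, Esco2 -0.79, 2810417H13Rik -2.16, Birc5 -3.23, Stmn1 -1.04, Cdk1 -2.04, Ccnb1 -0.92, Cdca3 -3.00, Cdca8 -1.64, Cenpe -2.06, Hmmr -1.63, Tpx2 -0.77, Ube2c -0.63, Cks1b -1.65, Nusap1 -2.33. Without cells with 5 or more members, these log2 ratios were against dermis Rrm2 -0.44, Tyms -0.19, Uhrf1 -0.62, Mki67 -0.012, Top2a -0.68, Cdk1 -1.58, Cdca3 -0.94, Cdca8 -0.68, Cenpe -0.77, Hmmr -0.77, Ube2c -0.19 and against lymph node Tyms -0.50, Birc5 -0.97, Cdk1 -0.72, Ccna2 -0.61, Cdca3 -0.85, Cdca8 -0.94, Cenpe -0.92, Cks1b -0.61. Without cells with 8 or more wider-list genes, these log2 ratios were against dermis Rrm2 -0.24, Tyms -0.18, Uhrf1 -0.011, Top2a -0.52, Cdk1 -1.60, Cdca3 -0.96, Cdca8 -0.27, Cenpe -0.79, Hmmr -0.79, Ube2c -0.20 and against lymph node Tyms -0.62, Birc5 -1.40, Cdk1 -0.83, Ccna2 -0.88, Ccnb1 -0.75, Cdca3 -1.01, Cdca8 -0.83, Cenpe -1.14, Hmmr -0.22, Cks1b -0.70.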
